A study of Mus musculus with 24 samples.

Results

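The transcripts of 8 genes of the sodium-potassium pump and of the plasma membrane calcium exporters were examined in optogenetic mouse muscle tissues. The genes were chosen by name, as the pump beta subunits Atp1b1, Atp1b2, and Atp1b3, the pump regulator Fxyd1, the plasma membrane calcium pumps Atp2b1 and Atp2b4, and the sodium-calcium exchangers Slc8a1 and Slc8a3. These were 8 of the 56941 genes in the deposited tables, and 7 of them were among the 13318 genes with enough counts to be tested. Slc8a3 did not pass the filter on low counts and is described by its counts. The 8 genes were chosen with earlier results of these data known. Shares over all genes are therefore given for scale and not as a test of the group.

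The tissues were made from C2C12, an established line of mouse muscle precursor cells whose members fuse into multinucleated fibers. All tissues, controls included, carried ChR2::tdTomato, a blue light-gated channel fused to a red fluorescent protein, and were differentiated on fibrin gels. Control tissues received no stimulation, and the 1 Hz, 4 Hz, and 10 Hz tissues received light pulses at that rate for 30 min per day. Bulk RNA sequencing was done on 6 libraries per condition, 24 in all. The study counts the tissues of a condition as biological replicates, and all came from the same engineered line, so that p-values measure the spread between tissues of that line. According to its authors, unstimulated tissues also twitched spontaneously, so that the control was not a contraction-free state.

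Each muscle action potential lets sodium enter and potassium leave the fiber. The sodium-potassium pump, made of a catalytic subunit, a beta subunit that carries it to the membrane, and often a small FXYD regulator, restores both gradients with the energy of ATP. Calcium leaves the fiber through ATP-driven plasma membrane calcium pumps and through sodium-calcium exchangers, which use the sodium gradient that the pump maintains.

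Total counts ranged from 4.09 to 15.2 M (mega) per library with a median of 7.48 M, and were 4.19 to 7.65 M in control. Muscle fiber markers (Acta1, Ckm, Myh3, Tnnt3, Ttn, and Myog) summed to 4565 to 5607 TPM (transcript abundance per length, scaled to a fixed total) in control, 6416 to 9167 TPM at 1 Hz, 6424 to 9907 TPM at 4 Hz, and 4273 to 6737 TPM at 10 Hz, so that every 1 Hz and 4 Hz library lay above every control library. A list of 24 non-polyadenylated small RNAs, of which 22 had counts, held 98.4 to 169 CPM (counts scaled to library size) in control, 15.6 to 70.2 CPM at 1 Hz, 19.5 to 51.1 CPM at 4 Hz, and 38.5 to 274 CPM at 10 Hz. Poly(A) selection was used, low-input samples were ribodepleted instead, and the labels do not say which. Endothelial, neuronal, and Schwann cell markers summed to at most 0.805, 1.02, and 3.73 TPM per library. Of the 3 leukocyte markers Cd68, a lysosomal protein gene, carried nearly all of a sum of 87.9 to 168 TPM, while Ptprc, which defines leukocytes, was at 0 in all control, 4 Hz, and 10 Hz libraries and reached at most 1 count in a 1 Hz library.

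Atp1b2, Fxyd1, and Slc8a1 were upregulated at 1 Hz and at 4 Hz and were lower again at 10 Hz, while Atp2b4 was downregulated at 4 Hz. A gene was called changed where edgeR's quasi-likelihood test gave it an adjusted p under 0.05 and its log2 fold change exceeded 0.5 in size. The calls of Fxyd1 at 1 Hz, Atp2b4 at 4 Hz, and Atp1b2 at 10 Hz against 4 Hz were lost when certain single libraries were left out. At 1 Hz against control, 3 of the 7 members tested were called higher and 0 lower, against 18.3% of all genes tested that were called and 9.34% that were called higher. At 4 Hz, 3 were called higher and 1 lower, against 20.1% of all genes called, 10.5% higher and 9.61% lower. At 10 Hz, 0 were called, against 1.86% of all genes. Of these 7 members at 10 Hz, 2 (Atp1b2 and Atp1b3) had an unadjusted p below 0.05, and DESeq2 and limma on TPM also called 0. The median log2 fold change of the 7 members was 0.24 at 1 Hz, 0.35 at 4 Hz, and 0.13 at 10 Hz, beside a median over all genes tested of -0.01 at each frequency. All 3 comparisons used the same 6 control libraries.

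**Figure D1:**
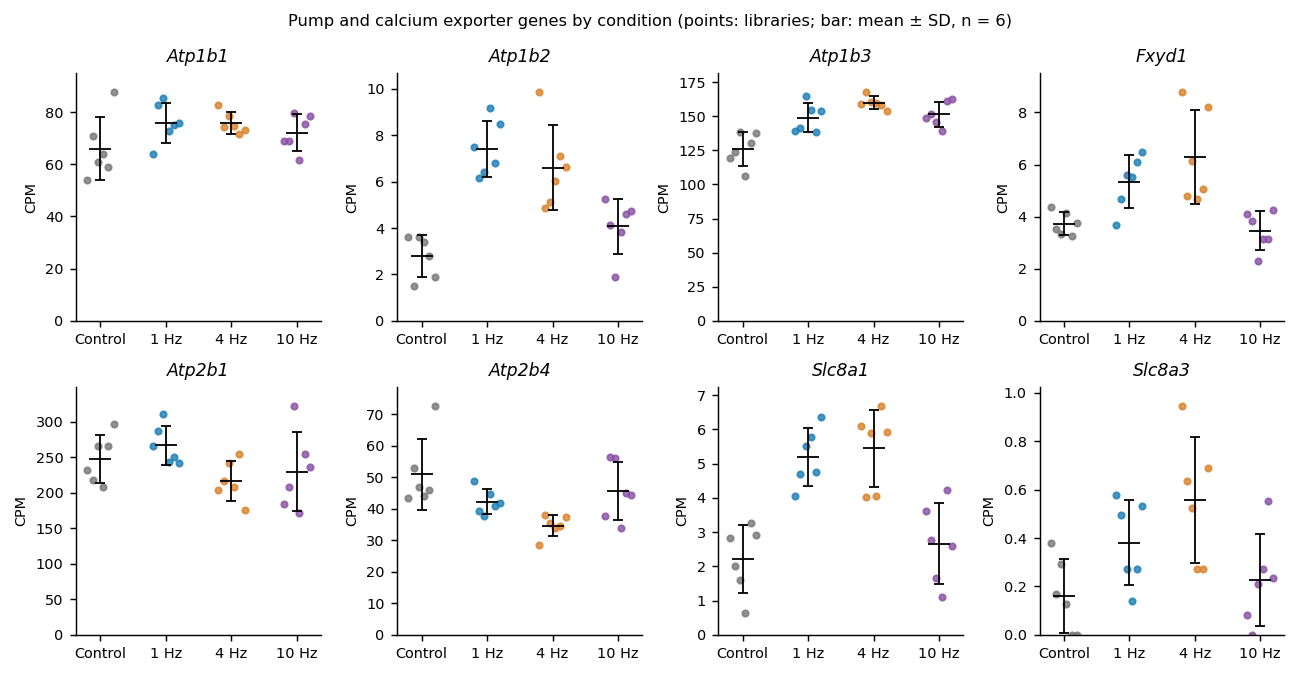
Normalized expression of the 8 genes in CPM (vertical axes, each from 0) by condition, with 1 point per library and bars for the mean ± SD of 6 libraries. Atp1b2 and Slc8a1 lie above every control library in all 1 Hz and 4 Hz libraries, as do 7.22% and 8.68% of all genes tested. Atp2b4 lies below every control library in all 4 Hz libraries, as do 7.93% of all genes tested.

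Among the beta subunits, Atp1b2 showed the largest fold change against control. In control tissues Atp1b2 ranged from 1.51 to 3.63 CPM with a median of 3.08 CPM. It ranged from 6.17 to 9.17 CPM at 1 Hz with a median of 7.15 CPM. At 4 Hz it ranged from 4.88 to 9.89 CPM with a median of 6.33 CPM. All 1 Hz and 4 Hz libraries lay above every control library, which held for 7.22% and 8.68% of all genes tested. By TPM the 4 Hz libraries (2.33 to 5.25) overlapped the control (1.04 to 3.13), and the 1 Hz libraries (3.29 to 4.92) did not. Atp1b2 at 10 Hz ranged from 1.88 to 5.24 CPM with a median of 4.38 CPM, and 5 of its 6 libraries lay above every control library. The log2 fold change was 1.39 ± 0.24 (SE) at 1 Hz (edgeR adjusted p = 0.0001) and 1.21 ± 0.24 at 4 Hz (edgeR adjusted p = 0.00026). At 10 Hz it was 0.52 ± 0.25 and did not pass the test (edgeR adjusted p = 0.226). Between frequencies, Atp1b2 was lower at 10 Hz than at 1 Hz, with a log2 fold change of -0.87 ± 0.22 (edgeR adjusted p = 0.0032) and every 10 Hz library under every 1 Hz library, as for 7.49% of all genes. It was also lower at 10 Hz than at 4 Hz (-0.69 ± 0.22, edgeR adjusted p = 0.0236), a call that was lost when 4 Hz replicate 1 (adjusted p = 0.0701) or 10 Hz replicate 3 (0.0618) was left out. The 4 Hz and 1 Hz libraries overlapped, with a log2 difference of -0.18 ± 0.21. Atp1b2 rested on 9 to 27 counts per control library.

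Atp1b3, which encodes the widely expressed beta-3 subunit, differed by a smaller amount and with little spread. The control libraries held 106 to 138 CPM, with a median of 127 CPM. The 1 Hz libraries held 139 to 165 CPM, those at 4 Hz 154 to 168 CPM, and those at 10 Hz 139 to 163 CPM. Every stimulated library lay above every control library at each of the 3 frequencies. At 1, 4, and 10 Hz, respectively, 7.22%, 8.68%, and 1.28% of all genes tested did so. This holds for CPM after TMM scaling. By TPM the control libraries held 86.1 to 114 TPM and overlapped each stimulated condition, whose lowest libraries were at 108, 105.1, and 98.6 TPM at 1, 4, and 10 Hz. On log2(TPM + 1), limma gave Atp1b3 0.17, 0.15, and 0.15 (adjusted p = 0.0703, 0.0855, and 0.211), which did not pass. The edgeR log2 fold changes of 0.24 ± 0.07 at 1 Hz (edgeR adjusted p = 0.0072), 0.35 ± 0.07 at 4 Hz (0.00029), and 0.27 ± 0.07 at 10 Hz (0.0216) passed the adjusted p, as 35.4%, 39.4%, and 4.89% of all genes did, and stayed under the fold threshold. The 10 Hz value of Atp1b3 no longer passed the adjusted p without control replicate 4 (0.0526) or 10 Hz replicate 6 (0.0566). Atp1b1, the beta-1 subunit gene, did not pass the test at any frequency. It ranged from 54.1 to 87.9 CPM in control and from 61.6 to 85.3 CPM over the stimulated libraries, with log2 fold changes of 0.20, 0.20, and 0.13 at 1, 4, and 10 Hz. The unadjusted p of Atp1b1 was 0.0408 at 1 Hz and 0.0445 at 4 Hz. Its adjusted p passed without control replicate 6 at 1 Hz (0.30, edgeR adjusted p = 0.00776) and at 4 Hz (0.30, 0.00735), and without 1 Hz replicate 1 at 1 Hz (0.25, 0.0435), always under the fold threshold. Their 95% intervals are drawn in the plot of fold changes.

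Per transcript length, the Atp1b2 change was a change in a minor subunit. In control, Atp1b3 averaged 101 ± 9.90 TPM (SD, n = 6), Atp1b1 42.8 ± 9.28 TPM, and Atp1b2 1.95 ± 0.72 TPM. Atp1b3 held 66.7% to 71.0% and Atp1b1 27.6% to 30.9% of the summed beta-subunit TPM as means of the 4 conditions. The mean share of Atp1b2 was 1.37% in control, 2.41% at 1 Hz, 2.15% at 4 Hz, and 1.46% at 10 Hz, and on this scale single libraries of every stimulated condition overlapped the control.

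Fxyd1, which encodes phospholemman, the FXYD regulator of the pump in heart and skeletal muscle, was higher at 1 Hz and at 4 Hz than in control. In control it ranged from 3.25 to 4.35 CPM with a median of 3.64 CPM. At 1 Hz it ranged from 3.66 to 6.48 CPM with a median of 5.54 CPM, and 5 of 6 libraries lay above every control library. At 4 Hz it ranged from 4.70 to 8.80 CPM with a median of 5.61 CPM. All 6 libraries lay above every control library, as for 8.68% of all genes tested. By TPM the 4 Hz libraries (15.1 to 27.3) overlapped the control (12.2 to 16.4). The 10 Hz libraries, at 2.29 to 4.25 CPM with a median of 3.49 CPM, overlapped the control. The log2 fold change was 0.53 ± 0.20 at 1 Hz (edgeR adjusted p = 0.0373), 0.74 ± 0.19 at 4 Hz (0.0036), and -0.11 ± 0.20 at 10 Hz (0.825). The 1 Hz call was close to both thresholds and was lost in 8 of the 12 fits without 1 of the libraries compared (control replicates 2, 3, 5, and 6 and 1 Hz replicates 3, 4, 5, and 6). In those 12 fits its log2 fold change ran from 0.47 to 0.61 with adjusted p up to 0.0901. Fxyd1 was lower at 10 Hz than at 1 Hz (-0.64 ± 0.19, edgeR adjusted p = 0.0114) and than at 4 Hz (-0.85 ± 0.19, edgeR adjusted p = 0.0025). By CPM all 10 Hz libraries lay under the lowest 4 Hz library, as for 3.54% of all genes. By TPM they overlapped, at 8.04 to 17.9 at 10 Hz and 15.1 to 27.3 at 4 Hz. The 4 Hz and 1 Hz libraries of Fxyd1 overlapped, with a log2 difference of 0.21 ± 0.18 (edgeR adjusted p = 0.491).

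Among the FXYD genes, the most abundant transcript was not Fxyd1 but Fxyd5, which encodes dysadherin. Fxyd5 averaged 82.0% of summed FXYD TPM in control, 74.3% at 1 Hz, 67.2% at 4 Hz, and 75.7% at 10 Hz. Fxyd1 averaged 12.3% in control, with libraries from 10.5% to 14.4%, and 18.6% at 4 Hz, with libraries from 16.5% to 23.2% and no overlap. Its mean share was 15.9% at 1 Hz and 14.4% at 10 Hz. The summed FXYD TPM averaged 116 in control, 125 at 1 Hz, 110 at 4 Hz, and 87.6 at 10 Hz. Fxyd1 itself averaged 14.2 TPM in control and 12.7 TPM at 10 Hz, so that its share there was higher without a higher level. The share of Fxyd6, another FXYD regulator, was 4.78% in control and 9.11%, 13.2%, and 9.28% at 1, 4, and 10 Hz.

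**Figure D2:**
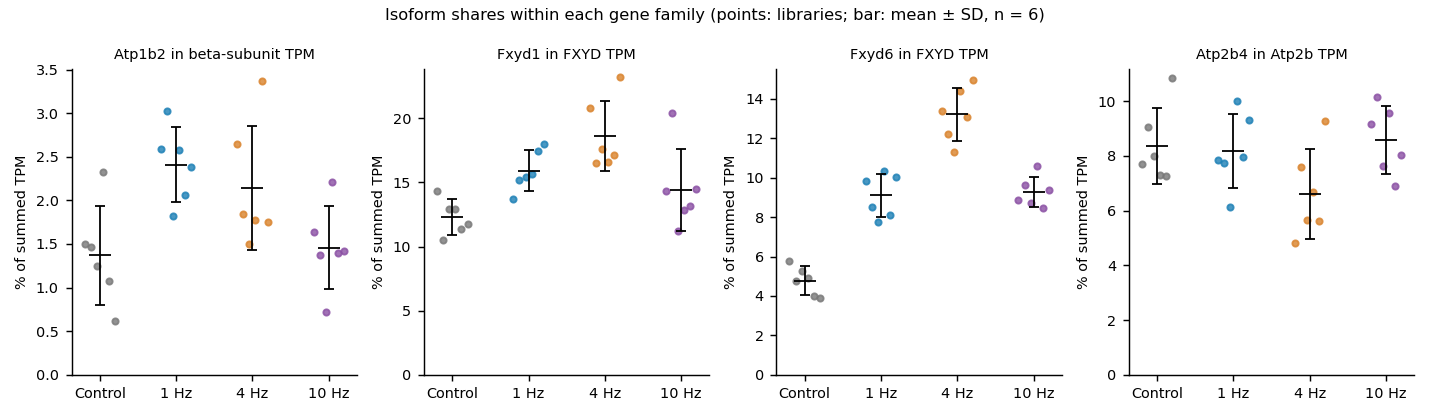
Share of Atp1b2 in the summed beta-subunit TPM, of Fxyd1 and Fxyd6 in the summed FXYD TPM, and of Atp2b4 in the summed Atp2b TPM (percent, each axis from 0), with 1 point per library and bars for the mean ± SD of 6 libraries. Fxyd6 averages 4.78% in control and 13.2% at 4 Hz without overlap, while the shares of Atp1b2 and Atp2b4 overlap between conditions.

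Slc8a1, the sodium-calcium exchanger NCX1, showed fold changes close to those of Atp1b2 from a low level. It ranged from 0.63 to 3.25 CPM in control with a median of 2.42 CPM. At 1 Hz it ranged from 4.05 to 6.37 CPM with a median of 5.13 CPM. At 4 Hz it ranged from 4.03 to 6.70 CPM with a median of 5.91 CPM. By CPM all 1 Hz and 4 Hz libraries lay above every control library, as for 7.22% and 8.68% of all genes tested. The 10 Hz libraries ranged from 1.09 to 4.24 CPM with a median of 2.68 CPM, and 2 of 6 lay above every control library. The log2 fold change was 1.31 ± 0.30 at 1 Hz (edgeR adjusted p = 0.0013), 1.36 ± 0.29 at 4 Hz (0.00068), and 0.33 ± 0.31 at 10 Hz (0.598). Slc8a1 was lower at 10 Hz than at 1 Hz (-0.98 ± 0.27, edgeR adjusted p = 0.0066) and than at 4 Hz (-1.03 ± 0.27, edgeR adjusted p = 0.0081). Each comparison rested on few reads per library, 5 to 15 in control, 19 to 81 at 1 Hz, 38 to 60 at 4 Hz, and 8 to 45 at 10 Hz. On the TPM scale the contrast was smaller and the libraries overlapped, at 0.841 ± 0.398 TPM (SD, n = 6) in control, 1.23 ± 0.433 at 1 Hz, and 1.21 ± 0.305 at 4 Hz. Limma on unfiltered log2(TPM + 1) gave Slc8a1 0.28 at both frequencies (adjusted p = 0.364 and 0.342) and did not call it. Adding 1 TPM makes differences at this low level come out too small. The fold threshold was therefore hard to reach in that fit, and the adjusted p did not pass either. The TPM values above, with nothing added, also showed a smaller contrast than CPM, and why was not tested.

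Slc8a3, the exchanger NCX3, was barely detected. Its summed counts over 6 libraries were 6 in control, 17 at 1 Hz, 29 at 4 Hz, and 10 at 10 Hz, with 2 control libraries and 1 10 Hz library at 0. This was 0.176 CPM of the raw totals in control with a 95% Poisson interval of 0.065 to 0.384, and 0.530 at 4 Hz with an interval of 0.355 to 0.761, which cover counting error only. In a fit without the filter on low counts, its log2 fold change at 4 Hz was 1.66 (edgeR adjusted p = 0.0828), which did not pass.

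Promoter sequences are shown for Fxyd1 and Slc8a1, members called higher at 1 Hz and 4 Hz that have a RefSeq entry. Each is the 250 bases before the RefSeq start, from a table of build GRCm38.p6, 5' to 3' on the gene's strand, and was located by exact match in GRCm39, the build of the deposited files. Capitals mark the NFAT core letters GGAAA. NFAT factors are activated by the calcium-dependent phosphatase calcineurin in muscle.
Fxyd1, chr7:30754279-30754528, minus strand: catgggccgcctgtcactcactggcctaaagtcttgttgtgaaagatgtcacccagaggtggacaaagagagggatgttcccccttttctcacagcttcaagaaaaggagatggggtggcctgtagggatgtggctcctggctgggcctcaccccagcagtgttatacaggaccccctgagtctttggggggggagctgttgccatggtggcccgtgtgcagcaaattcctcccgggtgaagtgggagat
Slc8a1, chr17:82045817-82046066, minus strand: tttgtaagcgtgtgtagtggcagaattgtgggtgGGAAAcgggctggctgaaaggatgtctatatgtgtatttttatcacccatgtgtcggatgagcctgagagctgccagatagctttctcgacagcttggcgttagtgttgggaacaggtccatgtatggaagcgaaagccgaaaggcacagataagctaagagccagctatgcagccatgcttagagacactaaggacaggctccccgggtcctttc
Both strands of each window were searched for GGAAA, the CRE core TGACG, and the E-boxes CAGCTG and CACCTG, the letters that myogenic factors bind. The Slc8a1 window held GGAAA once, as letters also found in 55.6% of 32851 promoters of the same length, and the Fxyd1 window held none of the 4. Over the 9 entries for 7 members, 4 held GGAAA, 2 held TGACG, and 2 (Slc8a3 and 1 of the Atp1b3 entries) held an E-box. Of all promoters, 17.8% held TGACG and 27.7% held either E-box. A match is a run of letters and not a tested binding site. RefSeq entries mark only some start sites, and several, those of Fxyd1 and Atp2b4 among them, lie inside the longer gene spans of the GENCODE annotation.

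The plasma membrane calcium pumps did not share this pattern. Atp2b4, which encodes PMCA4, ranged from 43.3 to 72.8 CPM in control with a median of 46.5 CPM. At 4 Hz it ranged from 28.4 to 37.9 CPM with a median of 35.1 CPM, so that all 6 libraries lay below every control library, as for 7.93% of all genes. By TPM the 4 Hz libraries (4.07 to 7.93) overlapped the control (7.48 to 13.45). The 1 Hz libraries ranged from 37.8 to 48.8 CPM and the 10 Hz libraries from 34.0 to 56.6 CPM, and both overlapped the control. The log2 fold change was -0.55 ± 0.13 at 4 Hz (edgeR adjusted p = 0.0011), -0.27 ± 0.13 at 1 Hz (0.0955), and -0.16 ± 0.13 at 10 Hz (0.512). One control library, replicate 6, stood apart at 72.8 CPM, and without it the Atp2b4 values were -0.43 at 4 Hz, -0.15 at 1 Hz, and -0.03 at 10 Hz. Without 4 Hz replicate 1 the 4 Hz value was -0.4988, and in neither case did it pass the fold threshold. The difference between 10 Hz and 4 Hz, 0.40 ± 0.13 (edgeR adjusted p = 0.0231), stayed under the fold threshold.

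Atp2b1, which encodes the widely expressed PMCA1, made up most of the calcium pump transcript and was not called in any of the 6 comparisons. Its libraries held 208 to 296 CPM in control and 242 to 311 CPM at 1 Hz. They held 176 to 255 CPM at 4 Hz and 172 to 323 CPM at 10 Hz, and all conditions overlapped. The log2 fold changes were 0.11, -0.19, and -0.11 at 1, 4, and 10 Hz, with edgeR adjusted p of 0.517, 0.229, and 0.676. At 10 Hz against 1 Hz, Atp2b1 was called with the fiber marker level as a covariate (-0.52, edgeR adjusted p = 0.0317), and passed the adjusted p without 10 Hz replicate 3 (-0.34, 0.0223). At 4 Hz against 1 Hz, limma on log2(TPM + 1) gave it an adjusted p of 0.0496, under the fold threshold. Its share of the summed Atp2b TPM averaged 91.6% in control and 93.4% at 4 Hz, where that of Atp2b4 averaged 8.36% and 6.61%. In control, the order of levels by TPM put Atp1b3 and Atp2b1 first (101 and 98.6 TPM, overlapping), then Atp1b1 (42.8), Fxyd1 and Atp2b4 (14.2 and 9.09, overlapping), Atp1b2 and Slc8a1 (1.95 and 0.841, overlapping), and Slc8a3 (0.080).

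**Figure D3:**
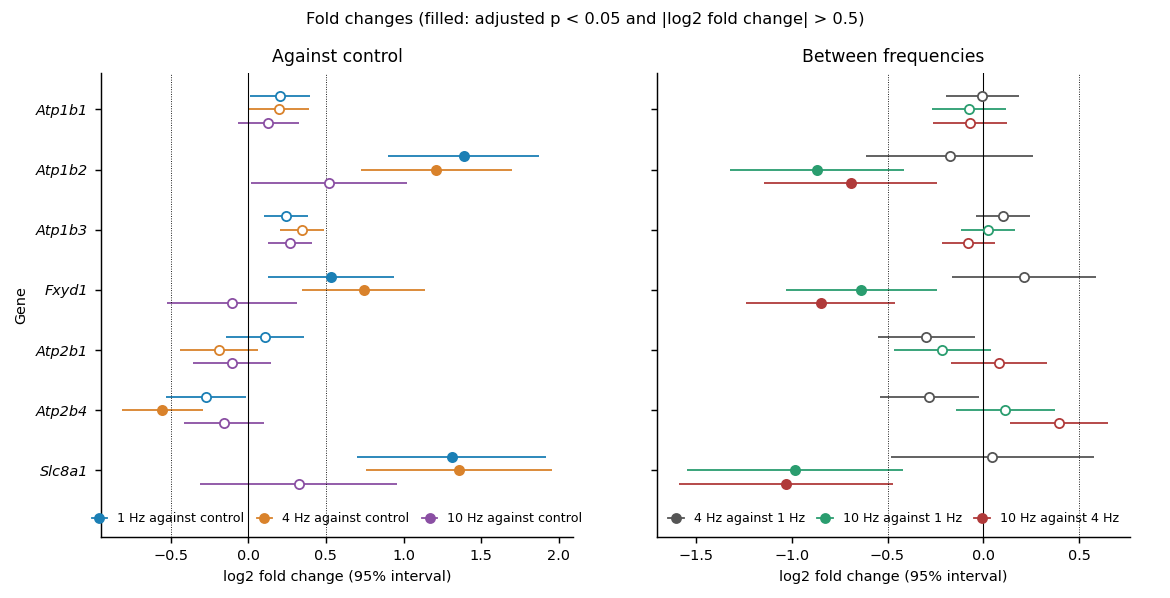
Log2 fold changes of the 7 members tested (horizontal axes) with 95% intervals, against control at left and between frequencies at right. Filled points passed both the adjusted p of 0.05 and the fold threshold of 0.5 in size (dotted lines), as Atp1b2, Fxyd1, and Slc8a1 did at 1 Hz and 4 Hz against control and in both comparisons of 10 Hz with the lower frequencies.

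Between frequencies, 3 of the 7 members were called lower at 10 Hz than at 1 Hz and 0 higher, against 17.9% of all genes tested that were called and 8.49% that were called lower. The same 3 genes, Atp1b2, Fxyd1, and Slc8a1, were called lower at 10 Hz than at 4 Hz, against 11% of all genes called and 5.64% called lower. These comparisons share the 10 Hz libraries. The members' median log2 fold change was -0.21 against 1 Hz and -0.08 against 4 Hz, beside 0.01 over all genes in both. At 4 Hz against 1 Hz, edgeR and DESeq2 called 0 members, against 3% of all genes, and 2 members (Atp2b1 at -0.30 and Atp2b4 at -0.28) had an unadjusted p below 0.05. For this comparison limma on log2(TPM + 1) called 1 member, Atp2b4.

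Library composition moved with these results. The summed muscle fiber markers were higher, and the small RNAs lower, in every 1 Hz and 4 Hz library than in every control library. Atp1b2 and Slc8a1 were likewise higher by CPM. Acta1 carried most of the fiber marker sum, at means of 3292 of 4916 TPM in control, 5384 of 7680 at 1 Hz, and 5123 of 7626 at 4 Hz. Ckm (91.9, 98.3, and 91.5 TPM in the same order) and Ttn (45.95, 43.7, and 37.6 TPM) were not called against control. Of the 6 fiber markers, 3 were called higher at 1 Hz, 4 at 4 Hz, and 2 at 10 Hz, beside 9.34%, 10.5%, and 1.86% of all genes tested that were called (higher at 1 Hz and 4 Hz, either way at 10 Hz). Undifferentiated myoblast markers (Pax7, Myf5, Msc, and Id3) summed to 42.6 to 69.3 TPM in control, 36.0 to 56.6 at 1 Hz, 46.0 to 70.5 at 4 Hz, and 49.3 to 72.4 at 10 Hz. Of these 4, Pax7 was called higher at 1 Hz (0.99) and 4 Hz (1.04) and lower at 10 Hz than at either (-0.92 and -0.96), and Myf5 was called lower at 4 Hz (-0.61). Other markers of this list went the other way: Myf5 was called higher at 10 Hz than at 4 Hz. Id3 was called higher at 4 Hz and at 10 Hz than at 1 Hz. Proliferation markers (Mki67, Top2a, Ccnb1, and Cdk1) summed to 27.4 to 47.9 TPM in control, 23.9 to 30.2 at 1 Hz, 18.8 to 33.55 at 4 Hz, and 26 to 34.6 at 10 Hz. Of these 4, 2 were called higher at 4 Hz (Mki67 at 1.28 and Top2a at 0.69) and 0 at 1 Hz or 10 Hz. The part of these markers in the members' results was not tested. With the fiber marker level as a covariate, an alternative chosen after seeing the data, 0 members were called at 1 Hz or 4 Hz, and Fxyd1 moved to -0.22 at 1 Hz and -0.01 at 4 Hz. In that fit Atp1b2 was at 0.79 and 0.64 (edgeR adjusted p = 0.167 and 0.175) and Slc8a1 at 1.07 and 1.12 (0.170 and 0.0758). At 10 Hz against 1 Hz and against 4 Hz, the same fit gave Fxyd1 -0.02 and -0.23 (edgeR adjusted p = 0.963 and 0.526). It gave Atp1b2 -0.39 and -0.23 (0.393 and 0.643) and Slc8a1 -0.785 and -0.839 (0.188 and 0.195). With the small RNA share as a covariate, 0 members were called in any comparison, with Atp1b2 at 1.21 and 1.04 and Slc8a1 at 1.28 and 1.33 at 1 Hz and 4 Hz. At 1 Hz and 4 Hz the stimulation cannot be told apart from the small RNA share or from the fiber marker level. The libraries of these conditions do not overlap the control in either measure, so that neither covariate fit can separate them. In bulk RNA, more fibers in a tissue and more RNA of a gene per fiber also cannot be told apart.

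**Figure D4:**
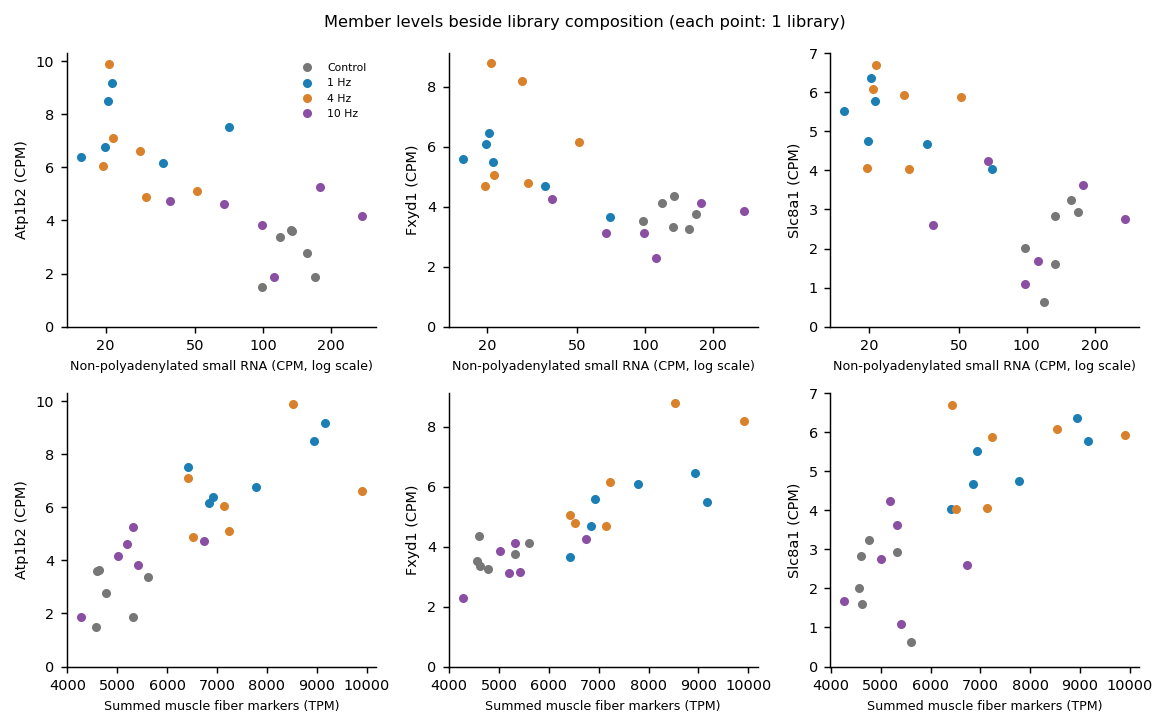
CPM of Atp1b2, Fxyd1, and Slc8a1 (vertical axes, from 0) against the summed CPM of non-polyadenylated small RNAs (top row, log scale) and the summed TPM of 6 muscle fiber markers (bottom row), with 1 point per library. Every 1 Hz and 4 Hz library lies below every control library in small RNA (at most 70.2 against at least 98.4 CPM) and above every control library in fiber markers (at least 6416 against at most 5607 TPM).

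Of 30 other genes of the pathway reported here, 13 were tested. At 1 Hz and at 4 Hz, 4 were called higher (Fxyd6, Ank1, Ank2, and Slc12a2), and at 10 Hz 2 (Fxyd6 and Ank1), and 0 were called lower at any frequency, beside 9.34% of all genes tested called higher at 1 Hz, 10.5% at 4 Hz, and 1.86% called either way at 10 Hz. Their median log2 fold change was 0.19, 0.17, and 0.05 at 1, 4, and 10 Hz, beside -0.01 over all genes tested. At 10 Hz against 1 Hz, 1 was called lower (Ank2), beside 8.49% of all genes tested. At 10 Hz against 4 Hz, 3 were called lower (Fxyd6, Ank1, and Ank2), beside 5.64%.

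The largest changes among these pathway genes were those of Fxyd6 and Ank1. Fxyd6 rose by 1.07 ± 0.15 at 1 Hz, 1.56 ± 0.14 at 4 Hz, and 0.65 ± 0.15 at 10 Hz (edgeR adjusted p = 1.09e-05, 5.09e-08, and 0.0113). Ank1 encodes an ankyrin, an adaptor that ties membrane proteins to the spectrin skeleton and, in a muscle form, to the sarcoplasmic reticulum. It rose by 1.04 ± 0.15, 1.33 ± 0.15, and 0.71 ± 0.15 in the same order. Ank2, an ankyrin known to anchor the pump and the exchanger in heart cells, rose by 0.96 ± 0.17 at 1 Hz and 0.77 ± 0.17 at 4 Hz, and stood at 0.15 ± 0.18 at 10 Hz. Slc12a2, the sodium-potassium-chloride cotransporter NKCC1, which brings sodium into the cell, rose by 0.57 ± 0.15 at 1 Hz and 0.58 ± 0.15 at 4 Hz. Sik1, a kinase that regulates the pump, and the bicarbonate carrier Slc4a7 passed the adjusted p at 1 Hz at 0.32 and 0.45 and stayed under the fold threshold. Slc8b1, the mitochondrial sodium-calcium exchanger, was the 1 gene tested of 9 other exchangers and calcium pumps, and its fold changes against control lay between -0.16 and 0.02.

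**Figure D5:**
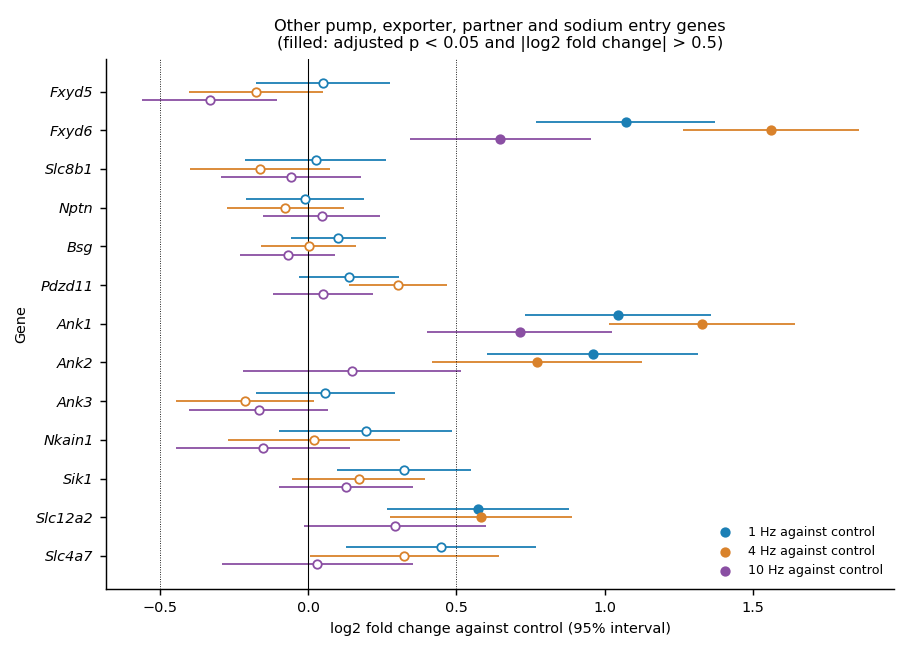
Log2 fold changes against control (horizontal axis) with 95% intervals for 13 other pathway genes tested, in the order FXYD regulators, the mitochondrial exchanger, partners and anchors, and sodium entry carriers. Filled points passed both thresholds, as Fxyd6 and Ank1 did at all 3 frequencies.

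The genes whose log2 CPM followed each member most closely over the 24 libraries differed between members. Among about 10180 candidates, Atp1b2 was most like Pygm (r = 0.888), the muscle glycogen phosphorylase gene, Ttl (0.887), a tubulin tyrosine ligase, and Actn2 (0.885), a Z-disc actinin. Fxyd1 was most like Tecr (0.921), Tpm1 (0.903), which encodes a tropomyosin, and Clpb (0.892). Slc8a1 was most like Cdkal1 (0.854), Dtd1 (0.851), and Hgf (0.843), which encodes hepatocyte growth factor. Atp2b4 was most like Myof (0.912), a membrane repair protein gene, Thbs2 (0.908), and Efhd1 (0.900), and Atp2b1 was most like Epc2 (0.927), Itgav (0.903), and Usp47 (0.898). Atp1b3 was most like Pkhd1 (0.883), Zbtb1 (0.872), and Mylk4 (0.868), and Atp1b1 was most like Cp (0.815), Chrnb1 (0.799), and Epha4 (0.796). The points share conditions and library composition, and these values are descriptions with no test.

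In GRCm39 (GENCODE M39), Atp1b2 lies on chr11:69487651-69496851, Fxyd1 on chr7:30751092-30756677, Slc8a1 on chr17:81680534-82045891, and Atp2b4 on chr1:133627195-133728923, all on the minus strand. Atp1b1 (chr1:164264678-164285957, minus strand) shares exon positions with Nme7 on the other strand, and whether the counting used strand is not given in the sources used here, so reads of these 2 genes may not be separated. Exons of Atp1b3, Atp2b4, Slc8a1, and Slc8a3 overlap predicted or microRNA genes, and those of Atp1b2, Fxyd1, and Atp2b1 are listed with no overlapping gene.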

How the data were processed

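RNA from 24 tissues (6 per condition) had been poly(A) selected, or ribodepleted for low-input samples, and sequenced as paired-end reads by the authors, who used the nf-core/rnaseq pipeline with GRCm39. The submitters' processing notes name STAR and Salmon. The deposited values are Salmon expected counts per gene, not normalized, and a TPM table that the authors scaled per library. Whether the counting used strand is not given in the sources used here. Groups and replicate numbers were read from the sample titles.

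After rounding the expected counts to whole numbers, genes were filtered with edgeR's filterByExpr by condition, leaving 13318 genes with 99.8% of counts. One edgeR 4.0.16 quasi-likelihood fit (limma 3.58.1, R 4.3.3) of all 24 libraries with TMM scaling and condition as the factor gave 6 contrasts. Benjamini-Hochberg adjustment ran over all genes tested, and calls needed an adjusted p under 0.05 and a log2 fold change over 0.5 in size. CPM use TMM-scaled library sizes, except those of the small RNA list and of the summed Slc8a3 counts, which use raw totals. Isoform shares and order of levels use TPM. Depths of 4.09 to 15.2 M counts set the counting error.

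Alternatives were DESeq2 1.42.0 without and with apeglm 1.24.0 (the study's method), DESeq2 size factors, total-count scaling, no filter, a minimum mean of 5 CPM, limma on log2(TPM + 1) or log2(TPM + 0.1) where the mean TPM reached 1, the former also unfiltered, fits of only the 12 libraries in a comparison, the replicate block, adjusted p alone, the small RNA share as a covariate, and each library left out in turn. With a pseudocount, log2 TPM differences of low genes come out too small. The muscle fiber marker covariate was added after the data were seen. The fit was tested on simulated data.

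Genes named are the 8 members, other pathway genes (some of which are not reported here), marker genes, and, for each member tested, the 3 genes of highest Pearson correlation in log2 CPM among genes with a mean of at least 5 CPM, leaving out predicted names. Members and lists were chosen with earlier results of these data known. Replicates were compared in 60 pairs within conditions, and none agreed within sampling noise. Promoters came from RefSeq (GRCm38.p6), positions from GENCODE M39.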

Additional observations from a re-analysis of the deposited data

Results flagged for a closer look

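In 1 of 32 groups of 6 libraries, 1 library lay far from the others for its group by Dixon's 95% criterion. Atp2b4 in control replicate 6 was at 72.8 CPM, the next control library at 53.0 CPM, and the gap was 0.672 of the range of the control libraries. Chance alone flags about 1 in 20 groups, and without this library the Atp2b4 log2 fold change against control was -0.15 at 1 Hz, -0.43 at 4 Hz, and -0.03 at 10 Hz.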

How the results depend on the processing

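The numbers of members called were 3 at 1 Hz, 4 at 4 Hz, and 0 at 10 Hz against control, 0 at 4 Hz against 1 Hz, and 3 at 10 Hz against 1 Hz and against 4 Hz. With a minimum mean of 5 CPM, which removes Fxyd1 and Slc8a1, they were 1 at 1 Hz, 2 at 4 Hz, and 1 in each comparison of 10 Hz with a lower frequency. With limma on log2(TPM + 1), with or without its filter, they were 1 at 1 Hz, 2 at 4 Hz, and 1 (Atp2b4) at 4 Hz against 1 Hz, and with log2(TPM + 0.1) 1 at 1 Hz and 1 at 4 Hz against 1 Hz, where Slc8a1 was under the TPM filter and was not called without it. Limma on log2(TPM + 1) gave Atp1b2 0.81 at 1 Hz and 0.61 at 4 Hz, and at 10 Hz against 4 Hz called Atp2b4 and Fxyd1 but not Atp1b2. With adjusted p alone the number at 10 Hz against control was 1 (Atp1b3). With the small RNA share as covariate it was 0 in every comparison, and over all genes 1 was called at 1 Hz (2441 without it), 220 at 4 Hz (2676), 178 at 10 Hz against 1 Hz (2390), and 0 against 4 Hz (1460). With the fiber marker level as covariate it was 0 against control and 0 at 10 Hz against 4 Hz, and 1 (Atp2b1) at 10 Hz against 1 Hz, with 214, 1410, 22, and 845 genes called at 1 Hz, at 4 Hz, and at 10 Hz against 4 Hz and 1 Hz, and Fxyd1 changed sign at 1 Hz (-0.22) and 4 Hz (-0.0079). The cause of these changes was not tested. Over all genes, only the 12 libraries compared gave 146 calls and limma on unfiltered TPM 158 at 10 Hz against control (248), and 5 CPM gave 927 and unfiltered TPM 831 at 10 Hz against 4 Hz (1460). Leaving out 1 library gave 2 to 3 members at 1 Hz, 3 to 4 at 4 Hz, 0 at 10 Hz, 0 at 4 Hz against 1 Hz, 3 at 10 Hz against 1 Hz, and 2 to 3 at 10 Hz against 4 Hz. Of 504 such single fold changes 12 lost their call, and of 543 under other alternatives 491 stayed on the same side of the thresholds, 39 lost the call, 11 gained it, and 2 called values changed sign. Sign also changed in 9 and 25 of these for values that were not called, as for Atp2b4 at 1 Hz with limma (0.08 on log2(TPM + 0.1)). The Fxyd1 call at 1 Hz was also lost with total-count scaling (0.45), no filter (adjusted p = 0.0792), and apeglm (0.41).

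Replicate numbers gave no clear sign of pairing: same-numbered libraries deviated together (r over 0.1) in 10 of 36 pairs, and 9 of 36 correlated best with their own number. The r ran from -0.184 to 0.362. These 36 pairs reuse the same 24 libraries, and the check cannot exclude that same-numbered tissues were handled together. With the replicate number as a block, members called were again 3, 4, 0, 0, 3, and 3. Counts of 5 to 33 per control library limit the precision of Atp1b2, Fxyd1, and Slc8a1, and Slc8a3 was too low to test.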
